A study of Mus musculus with 42 samples.

Results

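The genes described here mark mesoderm and the first progenitors of blood and blood vessels. They were chosen by name, as a list of 10 genes, and matched by symbol to the 14296 genes of the deposited values. Of the 10, 8 were found, namely Kdr, Pdgfra, Pecam1, Tal1, Lmo2, Etv2, Gata2 and Hand1, and Tbx6 and Cdh5 were not analysed here. Their transcripts were followed in W9.5 mouse embryonic stem (ES) cells of the 129X1/SvJ strain, an established line that gives rise to many cell types. Differentiation into embryoid bodies was undirected, after the cytokine LIF was withdrawn, and no transgene, inhibitor or lineage-directing factor is named for any sample. RNA was taken at 21 time points, every 6 h between 0 and 120 h, from a pair of courses named A and B that the study describes as biological duplicates. With a library for each course and time point there were 42 libraries.

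In the embryo, mesoderm leaves the primitive streak under the control of BMP, FGF, Nodal and Wnt signals, and a part of it that carries the VEGF receptor KDR (also named FLK1) gives rise to endothelium and to the first blood cells. In that population the ETS factor ETV2 is known to act upstream of the basic helix-loop-helix factor TAL1, which binds DNA with E proteins and, through the bridging proteins LMO2 and LDB1, with GATA factors. PDGFRA marks paraxial and cardiac mesoderm, HAND1 lateral and extraembryonic mesoderm. None of these genes belongs to a single lineage. PDGFRA also marks primitive endoderm, GATA2 and HAND1 are also trophoblast factors, and PECAM1, an adhesion molecule of endothelial junctions, is also carried by undifferentiated mouse ES cells.

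Levels are given as log2 CPM, the log2 of a gene's reads scaled to the same total in every library, or as CPM, before the logarithm, where so stated, and the values of a time point are given in the order A, then B. A gene is called changed where the adjusted p of limma was under 0.0001. The libraries held between 10120972 and 51652434 counted reads, with a median of 29692082, and 3 reads equalled 0.0571 to 0.316 CPM. No read at all appears as a value between -6.71 and -4.25 log2 CPM, which is set by the offset added before the logarithm. Most of the genes were scarce. Hand1 had 3 reads or fewer in 8 of the 42 libraries, Tal1 in 4, Kdr in 3 and Gata2 in 2, and the most reads in any library were 95 for Etv2 and 2233 for Pecam1. In RNA from whole cultures, fewer cells of a type and less RNA per cell cannot be told apart.

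The libraries of 96 h stood apart from each other. At that time 13.5% of all genes differed by more than 1 log2 unit between A and B, against 1.79% to 5.51% at the other time points. Called changes that use 96 h are therefore given with and without either library.

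The 8 genes did not move as a block. Lmo2 and Kdr were higher and Pecam1 was lower after the first 6 h. Tal1 had its highest mean at 48 h, and Etv2 reached its highest mean at 66 h. From 48 to 120 h Kdr, Gata2, Pdgfra, Hand1 and Pecam1 rose while Tal1 and Lmo2 fell. The highest mean of a gene exceeded its lowest by 6.15 times for Etv2, the least, and by 82.1 times for Kdr, the most, a size that depends on a 0 h library with no Kdr read. Every one of the 8 passed the test for any change over the 21 time points (limma F-test, adjusted p from 6.49e-20 for Pecam1 to 6.84e-05 for Etv2), as did 74.6% of all genes tested. Because the authors kept only genes above a minimum level in some samples, a gene that is scarce at other times could enter the files only through the times at which it is high, and the count of 8 is therefore a description. Etv2 was the least secure, since leaving out a single library ended its call for 26 of the 42 libraries.

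**Figure D1:**
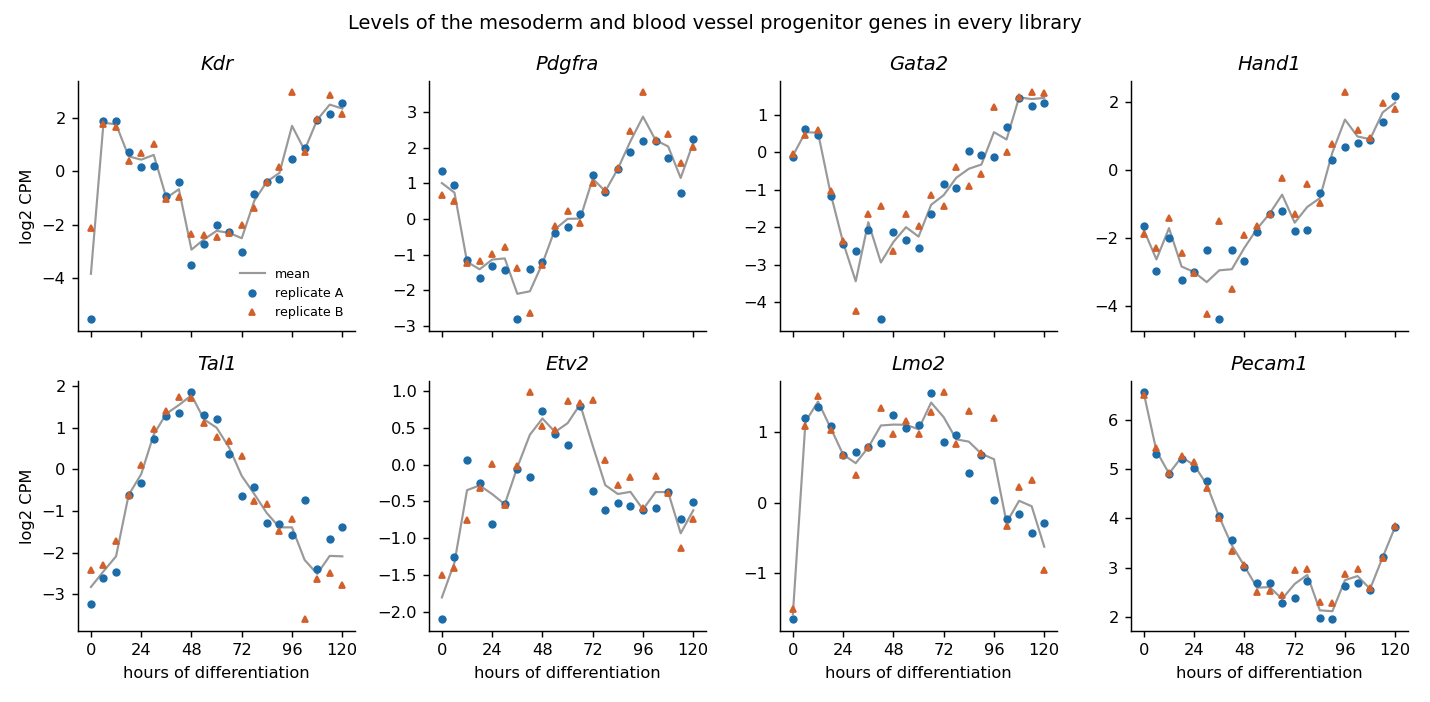
Level of each of the 8 genes (log2 CPM, vertical axis) against hours of differentiation (horizontal axis), with 1 point for each library of replicate A (circles) and B (triangles) and a line through the means of 2 libraries (each panel has its own scale). Tal1 peaks at 48 h, Pecam1 starts at its highest level, and Kdr, Pdgfra, Gata2 and Hand1 end high after a low stretch.

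The sequence just upstream of the start site is shown for 5 of the genes, since members of the list moved together or in opposite directions after 48 h, with Kdr, Pdgfra and Gata2 from the group that rose after 48 h and Tal1 and Etv2 from the group that peaked near it. The choice of 5 was set by the RefSeq promoter set used here, which had no entry for Lmo2, Hand1 and Pecam1. The windows are the 250 bases before the start site on GRCm38.p6, read 5′ to 3′ in the direction of transcription. They lie at chr5:75978456-75978705 (minus strand), chr5:75152001-75152250 (plus), chr6:88193641-88193890 (plus), chr4:115056176-115056425 (plus) and chr7:30635853-30636102 (minus). For Gata2 and Tal1, which have a second start site in RefSeq, the upstream one was taken. Capitals mark the letters of a searched motif.
Kdr: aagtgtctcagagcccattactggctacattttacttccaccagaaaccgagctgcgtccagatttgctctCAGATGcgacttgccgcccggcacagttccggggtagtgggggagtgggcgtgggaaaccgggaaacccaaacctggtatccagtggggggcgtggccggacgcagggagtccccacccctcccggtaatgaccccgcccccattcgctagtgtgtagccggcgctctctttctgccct
Pdgfra: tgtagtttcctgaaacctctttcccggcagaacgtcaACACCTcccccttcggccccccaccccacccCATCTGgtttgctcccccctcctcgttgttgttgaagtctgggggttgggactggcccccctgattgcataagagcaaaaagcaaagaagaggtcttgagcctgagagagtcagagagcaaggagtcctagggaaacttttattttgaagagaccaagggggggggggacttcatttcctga
Gata2: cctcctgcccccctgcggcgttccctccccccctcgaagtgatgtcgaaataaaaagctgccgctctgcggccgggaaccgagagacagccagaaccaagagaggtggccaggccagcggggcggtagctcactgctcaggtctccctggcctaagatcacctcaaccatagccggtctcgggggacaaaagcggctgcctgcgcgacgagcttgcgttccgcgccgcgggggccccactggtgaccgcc
Tal1: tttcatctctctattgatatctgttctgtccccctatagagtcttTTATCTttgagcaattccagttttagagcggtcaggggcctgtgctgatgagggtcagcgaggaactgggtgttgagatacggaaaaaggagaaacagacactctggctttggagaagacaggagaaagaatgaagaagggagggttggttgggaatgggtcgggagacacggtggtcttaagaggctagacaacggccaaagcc
Etv2: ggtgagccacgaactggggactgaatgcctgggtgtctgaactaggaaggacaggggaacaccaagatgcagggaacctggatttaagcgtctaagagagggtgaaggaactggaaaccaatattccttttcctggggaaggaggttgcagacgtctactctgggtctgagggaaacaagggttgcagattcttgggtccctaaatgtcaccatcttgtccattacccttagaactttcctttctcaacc

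Motifs were searched on both strands, with none of them contained in another: AGATAA for GATA factors, CAGGAAG for ETS factors, CAGATG for the E-box of TAL1, CAGCTG for a further E-box, AGGTGT for T-box factors, ATCAAAG for TCF and LEF factors, and the TATA box TATAAA. The Kdr window held the E-box CAGATG, 179 bases before the start. The Pdgfra window held the same E-box on the other strand at 182 bases and the T-box letters on the other strand at 213 bases before the start. The window of Tal1 held the GATA letters on the other strand, 205 bases before the start. No searched letters were found in the windows of Gata2 and Etv2. Such matches are common: among 32851 RefSeq promoter windows of the same length, 14.4% held CAGATG, 13% CAGCTG, 11.8% the T-box letters, 10.8% the ETS letters, 9.99% the GATA letters, 12.4% TATAAA and 3.21% ATCAAAG. The Gata2 window was rich in G and C (67.2%, with 22 CpG), as was that of Kdr (61.6%, 16 CpG), whereas those of Pdgfra (54.4%, 4 CpG), Etv2 (50%, 3 CpG) and Tal1 (48.8%, 6 CpG) lay near the median of all windows (52.4%, 6 CpG). The second windows, not shown, held no searched letters and more G and C, with 62.8% and 16 CpG for Tal1 (chr4:115057561-115057810) and 74% and 24 CpG for Gata2 (chr6:88198414-88198663). A match describes the letters only and was not tested for binding.

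Kdr encodes the main signalling receptor for VEGF-A and is the classical surface marker of mesoderm with blood and vessel potential. It lies on chromosome 5 (75932827 to 75978458, minus strand, GRCm38). In undifferentiated cells 0 reads were counted in A and 5 in B. At 6 h there were 102 and 58 reads, or 1.90 and 1.77 log2 CPM, and the libraries of 0 and 6 h did not overlap. This early rise of 5.68 (SE 0.70) on the log2 scale was past the threshold (limma, adjusted p = 1.09e-07). Its size rests on the library of 0 h with no read, and without it the change was 3.97 (limma, adjusted p = 1.34e-05). With voom precision weights, which give less weight to low counts, the change no longer passed (limma, adjusted p = 0.000324).

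Kdr did not stay at this level. Its values were 0.18 and 0.71 at 24 h and -3.52 and -2.36 at 48 h, where 2 and 5 reads were left, a difference of -3.38 (SE 0.70) that missed the threshold of 0.0001 (limma, adjusted p = 0.000404). At the time points from 48 to 72 h its means lay between -2.94 and -2.23 log2 CPM, with both replicates low. A second rise followed. Kdr was at -3.03 and -1.99 at 72 h, at 0.46 and 2.97 at 96 h and at 2.58 and 2.15 at 120 h. The change from 72 to 96 h was 4.22 (SE 0.70, limma, adjusted p = 6.41e-05), and at 96 h replicate B had the highest value of all Kdr libraries while A lay well below it. It was 2.97 without the 96 h library of B (limma, adjusted p = 0.00523), 5.48 without that of A, and it also lost its call without either library of 72 h. The rise from 48 to 120 h, of 5.31 (SE 0.70, limma, adjusted p = 3.24e-07), does not use 96 h and kept its call whichever of its 4 libraries was left out.

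Kdr thus had separate stretches of high level, at 6 to 12 h and from about 96 h on, with its fewest reads between them from 48 to 72 h. From 78 h on, both replicates were above both values of 0 h at every time point. The earlier stretch reached 3.54 CPM in the mean at 6 h and the later one 5.87 CPM at 114 h.

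Pdgfra encodes the alpha receptor for platelet-derived growth factors. It lies on the same chromosome (75152292 to 75198215, plus strand), and the annotated opposite-strand genes Gm42802 and Gm42803, which have no row in the files, overlap its exons, so that its value may depend on how strand was handled in counting. The gene was present at 0 h (1.33 and 0.68 log2 CPM) and at 6 h (0.96 and 0.52). At 12 h it was at -1.16 and -1.24, and its lowest mean came at 36 h, with -2.81 and -1.38. From 0 to 24 h the difference was -2.14 (SE 0.44) and missed the threshold (limma, adjusted p = 0.000182), but it passed with library totals in place of normalization factors (limma, adjusted p = 7.39e-05). Its values were -1.20 and -1.29 at 48 h, 1.24 and 1.02 at 72 h, 2.19 and 3.55 at 96 h and 2.25 and 2.02 at 120 h, and from 48 h on both replicates always exceeded both values of 36 h. Pdgfra rose by 3.38 (SE 0.44) from 48 to 120 h (limma, adjusted p = 2.82e-07), a call kept without any 1 of its 4 libraries. The first day of that rise, from 48 to 72 h, measured 2.37 (SE 0.44) and missed the threshold (limma, adjusted p = 0.000114). It passed with library totals (limma, adjusted p = 5.12e-05) and with an offset of 2 reads (limma, adjusted p = 9.22e-05). Its highest mean, 2.87 at 96 h, rests on B, whereas A alone was highest at 120 h.

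Kit, the stem cell factor receptor, lies between Pdgfra and Kdr on chromosome 5 (75574916 to 75656722, plus strand), and its course was like that of Pdgfra and unlike that of Kdr. Kit stood at 52.1 and 46.4 CPM at 0 h, at 8.96 and 8.97 CPM at 48 h and at 39.7 and 41.8 CPM at 120 h. Over the means of the 21 time points, Pdgfra and Kit correlated with r = 0.90, whereas r was 0.05 for Kdr and Kit and 0.29 for Kdr and Pdgfra. With members on other chromosomes, r of Kit was 0.75 for Hand1 and 0.66 for Gata2. It was -0.64 for Tal1, -0.61 for Lmo2, -0.46 for Etv2 and -0.25 for Pecam1. On the first day Kdr stood above its level of 0 h, and Pdgfra and Kit stood below theirs. These coefficients describe 21 points that share a time course and libraries.

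Pecam1 encodes a cell adhesion molecule of endothelial cells, platelets and leukocytes. Its level at 0 h was 6.56 and 6.52 log2 CPM. It fell by 1.17 (SE 0.15) within 6 h (limma, adjusted p = 3.42e-07), by 1.45 (SE 0.15) over 24 h (limma, adjusted p = 1.22e-08) and by a further 2.05 (SE 0.15) from 24 to 48 h (limma, adjusted p = 5.23e-11). Its replicates lay closer than those of the other 7 genes, with an SD between duplicates of 0.149 on the log2 scale. The values were 5.02 and 5.15 at 24 h, 3.01 and 3.05 at 48 h and 1.95 and 2.28 at 90 h, the lowest point in both courses. Later values were 2.62 and 2.87 at 96 h, 3.22 and 3.20 at 114 h and 3.82 and 3.85 at 120 h. The rise from 96 to 120 h was 1.09 (SE 0.15, limma, adjusted p = 1.3e-05). It lost its call without the 96 h library of A or either library of 120 h, with an adjusted p of at most 0.000614, and measured 0.96 without the 96 h library of A and 1.22 without that of B. The rise from 48 to 120 h, 0.80 (SE 0.15, limma, adjusted p = 7.07e-05), lost its call without any 1 of its 4 libraries (adjusted p up to 0.0015). At 120 h the level had dropped by 2.71 from that of 0 h (SE 0.15, limma, adjusted p = 3.07e-14).

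Undifferentiated cells carry PECAM1 as endothelium does, so markers of both are given beside it. The summed level of 10 pluripotency genes was 4654 and 4965 CPM at 0 h, 2525 and 2666 CPM at 48 h, 1563 and 2584 CPM at 96 h and 2168 and 2071 CPM at 120 h, with every one of the 10 among the genes measured. Against the sums of 120 h, that of 96 h was lower in A and higher in B. Of the vessel genes Tie1, Emcn, Icam2 and Cldn5, like Cdh5, no values were analysed here. From 48 to 120 h 14.2% of all genes were called higher and 11% lower. Of 16 endothelial and blood cell surface and other genes measured, 3 rose in that contrast (S1pr1, Aplnr and Kit) and 2 fell (Cd34 and Rasip1). Their summed level was 212 and 204 CPM at 0 h and 124 and 128 CPM at 48 h. At 120 h this sum was 178 and 186 CPM, below that of 0 h. Between 0 and 120 h 3 of the 16 rose and 4 fell, against 12.9% and 10.1% of all genes. The part of either cell type in the course of Pecam1 was not tested.

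Tal1, whose product is required for all blood formation, was the gene with a single peak near the middle of the course. It had 2 and 4 reads at 0 h (-3.24 and -2.42 log2 CPM). Its level was -0.33 and 0.10 at 24 h, 1.27 and 1.41 at 36 h and 1.85 and 1.71 at 48 h, where 103 and 92 reads were counted. The libraries of 36 to 48 h were above every library before 30 h. Afterwards it was at -0.64 and 0.33 at 72 h, at -1.59 and -1.20 at 96 h and at -1.39 and -2.79 at 120 h. From 48 to 120 h Tal1 fell by 3.88 on the log2 scale (SE 0.57, limma, adjusted p = 1.91e-06), and without the 120 h library of B the change was -3.18, short of the threshold (limma, adjusted p = 0.000333). The differences of 2.72 (SE 0.57) from 0 to 24 h and of 1.90 (SE 0.57) from 24 to 48 h missed the threshold (limma, adjusted p = 0.000227 and 0.0119). With voom precision weights the latter passed, as did the difference of -1.94 from 48 to 72 h. At 120 h its mean lay 0.74 above that of 0 h (SE 0.57, limma, adjusted p = 0.288).

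Lmo2 encodes the LIM-domain cofactor that joins TAL1 to GATA factors. An exon of it is overlapped on the opposite strand by 4931422A03Rik, which has no row in the files, so its value too may depend on how strand was handled in counting. It rose at once, from -1.65 and -1.50 log2 CPM at 0 h to 1.21 and 1.09 at 6 h, a change of 2.73 (SE 0.33, limma, adjusted p = 7.88e-08). Lmo2 and Kdr were the 2 genes of the 8 with an upward call in that step, against 11.8% of all genes, and Pecam1 was the 1 with a downward call, against 14.5%. Thereafter Lmo2 held a plateau, with means between 0.56 and 1.43 from 6 to 96 h, before it was found at -0.22 and -0.34 at 102 h and at -0.30 and -0.95 at 120 h. The fall from 48 to 120 h (-1.73, SE 0.33, limma, adjusted p = 6.24e-05) did not keep its call without any 1 of its 4 libraries, where the change ran from -2.06 to -1.40 and the adjusted p reached 0.0047. It was also lost with voom precision weights (limma, adjusted p = 0.000489) and with library totals (limma, adjusted p = 0.000126). Lmo2 was thus present from the first hours, while Tal1 had its highest mean at 48 h.

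Etv2 encodes an ETS factor that is needed for both endothelium and blood. Its course was shallow, from -2.10 and -1.50 log2 CPM at 0 h over -0.81 and 0.00 at 24 h to 0.73 and 0.52 at 48 h and 0.79 and 0.84 at 66 h. At 72 h A was at -0.36 and B at 0.87, the widest gap of this gene, and from 78 h on the means lay between -0.93 and -0.28. The libraries of 48 and 66 h were above both libraries of 0 h and 120 h, but no contrast between days passed the threshold. The nearest were the difference of 1.40 from 0 to 24 h (SE 0.40, limma, adjusted p = 0.0039) and that of -1.25 from 48 to 120 h (SE 0.40, limma, adjusted p = 0.00895). Its reads ranged from 5 to 95 per library. Etv2 had the lowest correlation between courses A and B of the 8 genes (r = 0.74 over 21 time points) and Pecam1 the highest (r = 0.99).

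Gata2 encodes a zinc-finger factor of blood stem cells and endothelium. It was present at 0 h (-0.14 and -0.04 log2 CPM) and at 12 h (0.46 and 0.60), and was then scarce. At 30 h there were 4 reads in A and 0 in B, and at 48 h 6 and 4. The values then were -0.84 and -1.45 at 72 h, -0.14 and 1.22 at 96 h and 1.33 and 1.58 at 120 h. Both replicates exceeded both values of 30 h from 54 h on. The rise from 48 to 120 h was 3.85 (SE 0.63, limma, adjusted p = 8.15e-06), with values from 3.52 to 4.10 under the other settings and with single libraries left out, and it no longer passed when any 1 of the 4 libraries was left out (adjusted p up to 0.00043). The course of Gata2 ran against that of Tal1, with r = -0.90 over the 21 means (-0.83 in A and -0.81 in B), a description over points that share their libraries. At 48 h Gata2 stood at 0.209 and 0.142 CPM where Tal1 stood at 3.59 and 3.26 CPM, and at 120 h Gata2 stood at 2.50 and 2.97 CPM where Tal1 stood at 0.362 and 0.124 CPM.

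Hand1 encodes a basic helix-loop-helix factor of lateral mesoderm, heart and extraembryonic mesoderm. It was near the limit of counting until 48 h, with 7 and 6 reads at 0 h, 5 and 0 at 30 h, 1 and 10 at 36 h and 4 and 7 at 48 h. The replicates of 30 and 36 h therefore lay far apart on the log2 scale. Its level was -1.80 and -1.30 log2 CPM at 72 h, 0.68 and 2.28 at 96 h and 2.17 and 1.79 at 120 h, where 124 and 83 reads were counted. From 48 to 120 h Hand1 rose by 4.27 (SE 0.70, limma, adjusted p = 8.48e-06), a call that was lost without the 48 h library of A or either library of 120 h (adjusted p up to 0.000537). It was also higher at 120 h than at 0 h, by 3.75 (SE 0.70, limma, adjusted p = 5.16e-05), a call that did not withstand leaving out any 1 of those 4 libraries (adjusted p up to 0.00161). The difference from 72 to 96 h, 3.03 (SE 0.70), missed the threshold (limma, adjusted p = 0.00189), and it was 2.23 without the 96 h library of B.

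**Figure D2:**
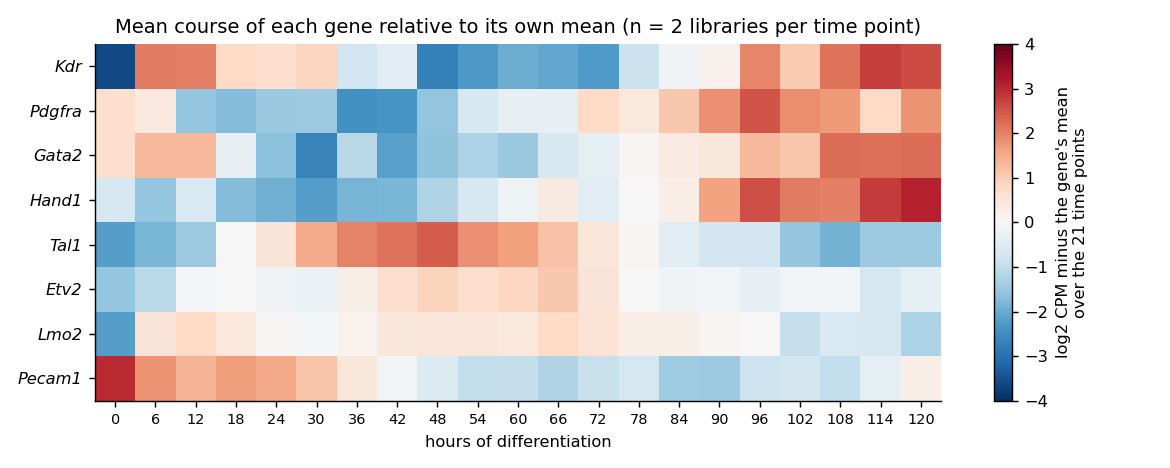
Mean level of each gene (rows, n = 2 libraries) at each of the 21 time points (columns, hours of differentiation), as log2 CPM minus the gene's own mean over the course (red above, blue below). Near 48 h Tal1 is above its mean where Gata2, Hand1 and Pdgfra are below theirs, and Kdr is above its mean from 6 to 30 h and again from 90 h.

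By day, few of the genes were called. From 0 to 24 h Kdr and Lmo2 rose, against 9.9% of all genes called higher, and Pecam1 fell, against 12.8% called lower. From 24 to 48 h Pecam1 fell and no other gene of the 8 was called, with 5.27% of all genes called higher and 3.7% lower. From 48 to 72 h limma called 0 of the 8, with 3 at an unadjusted p under 0.05 and 5.6% of all genes called higher and 3.78% lower, and with voom precision weights it called 1, Tal1, with 3 at an unadjusted p under 0.05. With library totals, and likewise with an offset of 2 reads and with a replicate block, it called 1, Pdgfra. The share of all genes at an unadjusted p under 0.05, or called under these other settings, was not counted. From 72 to 96 h Kdr rose, with 2.39% of all genes called higher and 1% lower. From 96 to 120 h Pecam1 rose, with 1.25% called higher and 0.686% lower. The calls of Kdr and Lmo2 from 0 to 24 h were kept with an offset of 2 reads and lost with voom precision weights. Without the 0 h library of A neither passed. The changes were then 2.58 for Kdr and 2.18 for Lmo2, against 4.29 and 2.26 with all libraries. Kdr lost its call without either library of 24 h as well.

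The contrast from 48 to 120 h had the most calls. Of the 8 genes, 5 rose (Kdr, Hand1, Gata2, Pdgfra and Pecam1), against 14.2% of all genes, and 2 fell (Tal1 and Lmo2), against 11%. With 1 library left out the calls fell from 7 to 3 (without 48 h of A), 3 (without 120 h of A), 4 (without 48 h of B) and 2 (without 120 h of B). The median change of the 8 was 2.09, and that of all genes 0.0031. At 48 h Kdr had 2 and 5 reads, Gata2 6 and 4 and Hand1 4 and 7. Given the authors' minimum level, such genes could enter only through times at which they are higher. The counts and the median of the 8 are therefore a description. The same holds for the lists below of which only some genes were measured. Between 0 and 120 h 2 rose (Kdr and Hand1), against 12.9% of all genes, and 1 fell (Pecam1), against 10.1%. The call of Kdr between 0 and 120 h was lost with voom precision weights (limma, adjusted p = 0.000105). In single steps of 6 h the calls were the 3 of the first step, while 1.77% of all gene-by-step values were called. In the other 19 steps limma called 0 of 152 values, with 25 at an unadjusted p under 0.05. With voom precision weights it called 0, with 30 at that unadjusted level. The share of all genes at that level was not counted, so neither number is read as a result about the 8 genes.

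**Figure D3:**
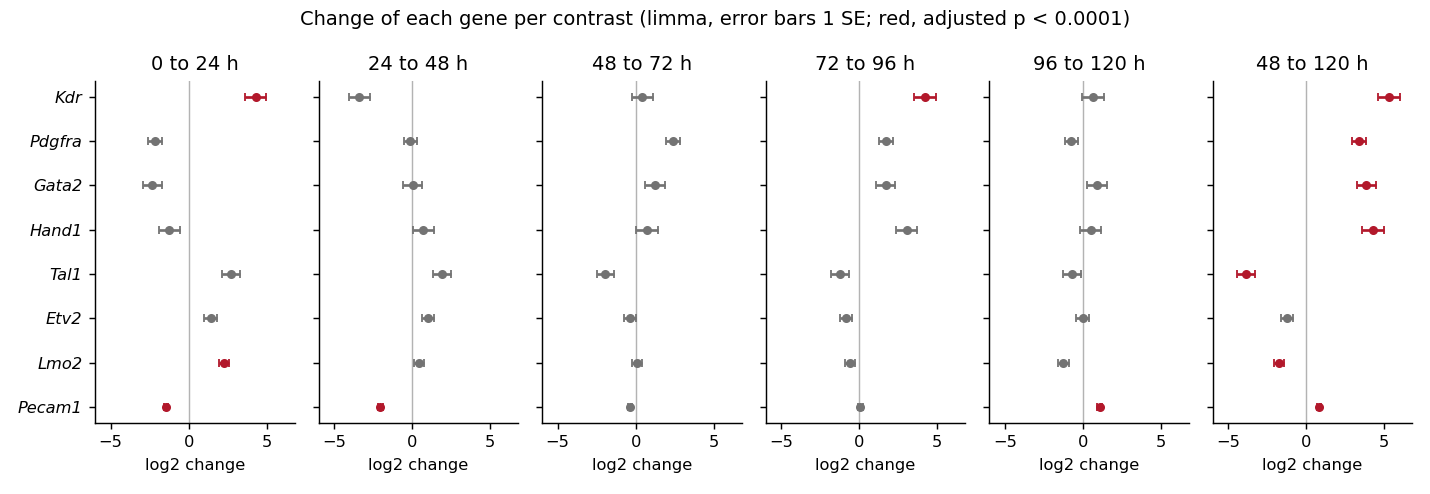
Change of each gene (rows) in log2 units (horizontal axis) in 6 contrasts between time points, from limma with bars of 1 SE and adjusted p < 0.0001 in red. From 48 to 120 h 7 of the 8 genes are red, 5 to the right of zero and 2 to the left.

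The gap between the libraries of 96 h was wide for 5 of the genes. All 8 were higher in B than in A at that time, 5 of them by more than 1 log2 unit, with a median of 1.26, whereas 49.3% of all genes were higher in B and 5.42% by more than 1 unit. The gaps were 2.52 for Kdr, 1.60 for Hand1, 1.36 for Pdgfra, 1.36 for Gata2 and 1.16 for Lmo2, but 0.39 for Tal1, 0.25 for Pecam1 and 0.03 for Etv2, the last 3 within the SD of 0.739 of this gap over all genes. The summed level of 18 nascent and paraxial mesoderm genes was 261 CPM in A and 797 CPM in B at 96 h, and T (brachyury), the marker of the primitive streak, stood at 51.8 and 227 CPM. The 13 lateral plate, cardiac and extraembryonic mesoderm genes summed to 181 and 339 CPM, and the 10 pluripotency genes to 1563 and 2584 CPM. At 102 h Tal1 alone differed by more than 1 log2 unit, with 18 reads in A and 1 in B. In those 5 genes the value of B at 96 h lay above its own values of 90 and 102 h. At 90, 96 and 102 h Kdr read 0.17, 2.97 and 0.74 in B, whereas A read -0.28, 0.46 and 0.87. Over the same hours Hand1 read 0.75, 2.28 and 1.18 in B, whereas A read 0.28, 0.68 and 0.79. The cause of the gap was not tested.

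**Figure D4:**
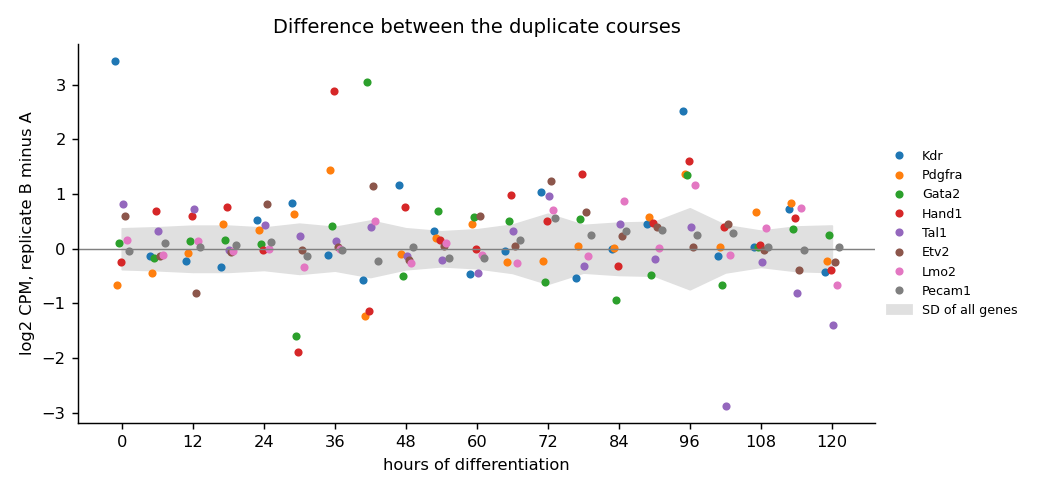
Difference between the duplicates of each gene (replicate B minus A, log2 CPM, vertical axis) at each time point (hours, horizontal axis), with the SD of this difference over all genes as a grey band above and below zero. At 96 h all 8 points lie above zero, and 5 of them lie above 1.

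Per kilobase of exon, the order of the genes changed from one end of the course to the other. At 0 h Pecam1 stood first with 15.2 and 14.7 CPM per kb, far above Etv2 with 0.202 and 0.317, Pdgfra with 0.249 and 0.157, Gata2 with 0.165 and 0.177, Lmo2 with 0.137 and 0.153 and Hand1 with 0.148 and 0.125. Among these 5, the replicates of Etv2 and Pdgfra, of Pdgfra and Gata2, and of Lmo2 and Hand1 overlapped. Tal1 and Kdr were last, with at most 0.0379 CPM per kb and with overlapping replicates. At 48 h Etv2, Lmo2 and Tal1 stood with Pecam1 at the top, and Gata2 (0.0388 and 0.0263) stood next to last. Etv2, with 1.56 and 1.35 CPM per kb, stood above Pecam1 (1.29 and 1.33), then followed Lmo2 (1.08 and 0.901) and Tal1 (0.820 and 0.745), and Kdr was last with 0.00773 and 0.0196. Neighbours in the order of 48 h did not overlap between replicates. At 120 h Pecam1 (2.26 and 2.31) and Hand1 (2.25 and 1.72) led, Etv2, Kdr, Gata2 and Pdgfra followed between 0.404 and 0.662 with overlapping replicates, and Lmo2 (0.368 and 0.229) and Tal1 (0.0827 and 0.0283) were last.

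Of the VEGF and PDGF ligands and receptors other than Kdr and Pdgfra, 14 were measured, and 7 rose and 1 fell from 48 to 120 h, with a median change of 1.35 against 0.0031 for all genes, of which 14.2% were called higher and 11% lower. Flt1, the VEGF receptor that binds VEGF-A tightly and signals weakly, went from 1.67 and 1.81 CPM to 28.5 and 32.1 CPM (change 4.10, SE 0.24, limma, adjusted p = 7.34e-14). Vegfa, the ligand of both receptors, went from 7.36 and 7.77 to 52.0 and 56.1 CPM (change 2.83, SE 0.19, limma, adjusted p = 7.77e-13). Pdgfb, a ligand of the PDGF receptors, went from 0.209 and 0.248 to 35.8 and 36.3 CPM (change 7.20, SE 0.28, limma, adjusted p = 1.19e-17). Flt1 had already risen between 48 and 72 h, when it reached 19.9 and 18.0 CPM and Kdr was still at 0.109 and 0.232 CPM. Pdgfa, the main ligand of PDGFRA, named here after its values were seen, stood at 11.9 and 11.5 CPM at 48 h and 45.5 and 45.0 CPM at 120 h. The summed level of the 14 genes was 276 and 285 CPM at 0 h and 89.1 and 86.8 CPM at 48 h. At 120 h this sum was 288 and 296 CPM, near that of 0 h. Between 0 and 120 h 5 of the 14 rose and 3 fell, against 12.9% and 10.1% of all genes. Vegfa then differed by -0.56 (SE 0.19, limma, adjusted p = 0.0126) and was not called.

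Blood and vessel factors beyond the 8 genes were measured for 14 of 26, and Fli1, Erg, Sox17, Sox18, Lyl1, Klf1 and Spi1 were among those not analysed here. From 48 to 120 h 6 of the 14 rose and none fell (median change 0.86). Of all genes, 14.2% were called higher and 11% lower in this contrast. Ets1 went from 3.66 and 3.26 CPM to 65.1 and 56.0 CPM, Runx1, the factor needed for definitive blood, from 0.523 and 0.461 to 6.45 and 5.33 CPM, and Sox7 from 0.244 and 0.142 to 1.41 and 1.73 CPM. Surface and other genes of endothelium and blood were measured for 16 of 23, and 3 rose and 2 fell from 48 to 120 h, with a median change of 0.04. Those that rose were S1pr1 (0.0349 and 0.0709 to 4.02 and 5.62 CPM), Aplnr (0.0349 and 0.106 to 2.06 and 2.07 CPM) and Kit, and those that fell were Cd34 and Rasip1. S1pr1 and Aplnr had 3 reads or fewer at 48 h, so the size of their rise depends on the offset. The embryonic globins Hbb-bh1 and Hba-x were not analysed here.

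The other mesoderm genes were counted in the same way, beside the same 14.2% of all genes called higher and 11% called lower. Of 18 nascent and paraxial mesoderm genes measured, of 24 listed, 10 rose and 3 fell from 48 to 120 h (median change 2.14). Cyp26a1 (0.105 and 0 to 9.16 and 8.30 CPM), Frzb (0.0698 and 0.142 to 17.7 and 16.8 CPM) and Evx1 (0 and 0.0709 to 4.02 and 3.22 CPM) had the largest changes, with 4 reads or fewer in each library of 48 h. Of 13 lateral plate, cardiac and extraembryonic mesoderm genes measured, of 22 listed, 8 rose and 1 fell (median change 1.92). Msx2 went from 5 and 5 reads to 387 and 373 reads, Foxf1 from 0 and 0.0355 to 2.39 and 2.07 CPM and Gata6 from 0.0698 and 0.0355 to 1.92 and 1.65 CPM. The summed level of these 13 genes was 447 and 443 CPM at 0 h and 80.2 and 71.7 CPM at 48 h. At 120 h this sum was 433 and 417 CPM, near that of 0 h. Between 0 and 120 h 8 of the 13 rose and 3 fell, against 12.9% and 10.1% of all genes. Mesp1 and Hand2 were not analysed here.

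Markers of other cell types were counted over the same hours, in which 14.2% of all genes were called higher and 11% lower. Of 10 trophoblast markers measured 7 rose and none fell from 48 to 120 h, and their summed level went from 54.8 and 58.4 CPM to 1899 and 2036 CPM, with Gata3 (0.0698 and 0.0709 to 10.2 and 10.4 CPM), Tfap2c (1.33 and 1.06 to 82.7 and 86.6 CPM) and Krt8 (23.9 and 24.2 to 1033 and 1109 CPM) the most changed. Krt8 alone made the largest part of that sum at 120 h, and Gata3 a small part. Elf5, Plac1 and the late placental markers Prl3d1 and Tpbpa, also listed, were not analysed here. Of 11 primitive and visceral endoderm markers 7 rose and none fell, and their sum went from 293 and 288 to 912 and 882 CPM. Gata6, Sox7 and Sparc led this list, and Gata6 and Sox7 stand in the mesoderm or vessel lists as well. Of 5 neural markers 2 rose (Nes and Sox1) and none fell, with a sum of 50.9 and 48.9 CPM at 48 h and 216 and 199 CPM at 120 h. Of the 10 pluripotency genes 5 rose, Prdm14, Klf4 and Tfcp2l1 the most, and 2 fell, Pou5f1 and Tdgf1. Gata2 and Hand1 rose in the same hours as the trophoblast markers, and Pdgfra in the same hours as the endoderm markers, and the part of these cell types in the rise of Gata2, Hand1 and Pdgfra was not tested.

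Likeness of course was measured by Pearson's r over the 21 means, among the 14288 genes whose highest mean reached 0 log2 CPM or more. Tal1 was most like Nectin3 (r = 0.96), Il10 (0.96) and Pgrmc2 (0.96), each of which peaked at 42 h. Hand1 was most like Csf1 (0.96), Pdlim2 (0.96) and Tdrd7 (0.96), and Pdgfra most like Adssl1 (0.96), S100a1 (0.96) and Saraf (0.96). Gata2 was most like Rin3 (0.95), Fabp3 (0.94) and Tinagl1 (0.94), Pecam1 most like Triml1 (0.98), Pcsk6 (0.97) and Adgre5 (0.97), and Etv2 most like Hvcn1 (0.91), Ccn3 (0.91) and Jakmip2 (0.90). Kdr was most like Fam122a (0.92), Serpinb9b (0.91) and Pigk (0.90), whose highest level was at 6 h, and Lmo2 most like Pyroxd1 (0.88), Gm10762 (0.88) and ENSMUSG00000097188.1 (0.87). Within the list, the closest courses were those of Hand1 and Pdgfra (r = 0.85), Etv2 and Tal1 (0.79), Gata2 and Hand1 (0.77) and Gata2 and Pdgfra (0.73). Etv2 and Lmo2 (0.67), Gata2 and Kdr (0.58) and Lmo2 and Tal1 (0.58) came next. These coefficients describe likeness over 21 points of a single course in duplicate. They take no account of the size of a change. The means of Pigk lay between 4.22 and 4.57 log2 CPM, and those of Kdr between -3.85 and 2.51. Within A and B alone, r with Kdr was 0.89 and 0.76 for Fam122a, 0.85 and 0.95 for Serpinb9b and 0.71 and 0.80 for Pigk.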

How the data were processed

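RNA-seq values of 42 libraries were used, 1 per course (A or B) and time point. The deposited values are log2 CPM that the authors made from polyadenylated, stranded RNA: reads were trimmed with Trim Galore, aligned to mm10 with TopHat2, counted per GENCODE gene with HTSeq, normalized with edgeR and transformed with voom of limma, after genes of low counts were removed. Tool versions and the strand setting of the counting are not given in the sources used here. Every value came back as a whole read count once the voom offset of 0.5 reads and the library size were undone, and these counts gave the reads and CPM reported. The depth was 10120972 to 51652434 counted reads. Each time point rests on 2 libraries.

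Gene names (14177 of 14296) and coordinates came from GENCODE vM21 on GRCm38. limma 3.58.1 in R 4.3.3, with an intensity trend in the variance and Benjamini-Hochberg adjustment over all genes, was fitted to all 42 libraries with time point as the factor, leaving 21 residual degrees of freedom. The p-values measure the spread between the courses A and B. Changes with an adjusted p under 0.0001 were called. Tables and figures were made with Python 3.11.15, numpy 2.4.6, pandas 2.3.3 and matplotlib 3.10.9. The code was tested on simulated data. All members found were named, with the 3 genes of each list that changed most from 48 to 120 h among those called, further genes where a sentence on a member turned on them, and the 3 genes most like each member in course. The members and lists were chosen with earlier results of these data known. Alternatives were a replicate block, voom precision weights from the recovered counts, other scalings, an offset of 2 reads, a filter on low means, a threshold of 0.05 and leaving out each library in turn. Tbx6 and Cdh5 were not analysed here.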

Additional observations from a re-analysis of the deposited data

How the results depend on the processing

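Of 19 member changes called, 13 kept their call under each other setting in which the gene was tested (the filter on low means left 5 members untested) and 9 with each library left out in turn, and none changed sign. Of the 8 members, 0 were called from 48 to 72 h, against 1 with the replicate block, 1 with library totals in place of normalization factors and 1 with an offset of 2 reads, each time Pdgfra, and 1 with voom precision weights, Tal1. With voom weights the calls were 1 in place of 3 from 0 to 24 h, 2 in place of 1 on the following day and 0 in place of 1 between 72 and 96 h, with 6 in place of 7 between 48 and 120 h (Lmo2 lost), 2 in place of 3 between the ends of the course (Kdr lost), 2 in place of 3 in the steps of 6 h (Kdr lost) and 7 in place of 8 over time (Etv2 lost, as with the offset of 2 reads). With library totals 4 in place of 3 were called on the first day (Pdgfra added) and 6 in place of 7 between 48 and 120 h (Lmo2 lost). A filter on a mean of at least 0 log2 CPM removed Kdr, Etv2, Tal1, Gata2 and Hand1 from the test, and left 3 members changed over time, 0 called from 72 to 96 h, 3 between 48 and 120 h and 1 between 0 and 120 h. At an adjusted p under 0.05 in limma the calls numbered 7, 3, 2, 4 and 2 on the successive days of the course, 7 between its ends and 10 in the steps of 6 h. The share of all genes called was not counted at this threshold, under the other settings or with a library left out. These counts are therefore not read as a result about the members. With each library left out in turn the calls ranged from 1 to 3 on the first day, from 2 to 4 in place of 7 between 48 and 120 h, and from 0 to 1 on each of the last days, those that begin at 72 h and at 96 h. The fewest on the first day came without the 0 h library of A (1), and the fewest between 48 and 120 h without the 120 h library of B (2). Scaling by library totals shifted the log2 values of a library by a median of up to 0.179. The residuals of libraries that share a letter correlated by 0.0795 in the mean of 210 time point pairs and by -0.474 in the lowest. Of these correlations 68.6% were positive, so whether the letters pair the libraries weakly was not settled. The replicate block changed no other count of calls. Of 16 peak times taken from A or B alone, 7 equalled that of the mean. Scarce members were limited by depth, with few reads behind each low value.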
